A study of Mus musculus with 24 samples.

Results

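The 9 genes described here encode enzymes of the mevalonate arm of cholesterol synthesis, the steps that lead from acetyl-CoA to squalene. They are Acat2, Hmgcs1, Mvk, Pmvk, Mvd, Idi1, Fdps, Fdft1 and Ggps1, chosen by symbol from pathway knowledge, with earlier results of these data known. All 9 were found among the 34436 genes of the count table. Reads per gene were counted in total RNA of liver from C57BL/6 mice with the wild-type genotype. Their diets lasted 8 weeks and began when the mice were 8 to 10 weeks old. The diets used here were 2% cholesterol with cholic acid (Chol_CA, 4 libraries), cholic acid alone (CA, 4 libraries), high sucrose with 2% cholesterol (HS_Chol, 3 libraries), high sucrose (HS, 5 libraries) and normal chow (NC, 4 libraries). One sample titled HS carries a chow diet label and could not be traced to its column, so 1 of the HS libraries may be from chow. A sixth labelled diet, high sucrose with cholesterol and cholic acid, was not analysed here because no column could be matched to it. The labels number the livers of each diet but do not state that each came from its own mouse, so the p-values measure the spread between these samples.

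In the mevalonate arm, cytosolic acetyl-CoA is joined and reduced to mevalonate, which is phosphorylated and decarboxylated to isoprene units, and these are linked into farnesyl diphosphate. Farnesyl diphosphate stands at a branch point: squalene synthase sends it to sterols, and geranylgeranyl diphosphate synthase extends it for protein prenylation and other non-sterol products. The liver is a main site of cholesterol synthesis in the body, and when its membranes are rich in cholesterol the transcription factor SREBP-2 is held in the endoplasmic reticulum and transcribes fewer of these genes. Cholic acid, a bile acid, helps dietary cholesterol to be absorbed and is sensed by the nuclear receptor FXR. The comparisons ask how each diet stood against chow, and what cholesterol added to high sucrose and to cholic acid.

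SREBP-2 is known to act on sterol response elements beside CCAAT boxes, which bind NF-Y, so the promoter windows of 4 of the genes are shown. Hmgcs1, Mvk and Mvd, like Pmvk, were lower in every comparison of a cholesterol or cholic acid diet with chow, and Ggps1, at the branch point, was called in none of them. RefSeq windows of the GRCm38.p6 build, running from 250 bases before to 50 bases after the annotated start, were held for 7 of the 9 genes. They lie at chr13:119690101-119690400 on the plus strand for Hmgcs1, chr5:114444019-114444318 on the plus strand for Mvk, chr8:122443373-122443672 on the minus strand for Mvd and chr13:14063439-14063738 on the minus strand for Ggps1. Capitals mark CCAAT in either direction (ATTGG where it lies on the other strand) and TCACNCCAC, a form of the sterol response element.
Hmgcs1: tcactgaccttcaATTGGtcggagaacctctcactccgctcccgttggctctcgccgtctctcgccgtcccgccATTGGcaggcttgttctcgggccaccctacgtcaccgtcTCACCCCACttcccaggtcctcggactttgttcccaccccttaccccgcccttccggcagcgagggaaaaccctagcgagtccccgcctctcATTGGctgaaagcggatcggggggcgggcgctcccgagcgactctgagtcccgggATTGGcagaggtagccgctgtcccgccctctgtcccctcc
Mvk: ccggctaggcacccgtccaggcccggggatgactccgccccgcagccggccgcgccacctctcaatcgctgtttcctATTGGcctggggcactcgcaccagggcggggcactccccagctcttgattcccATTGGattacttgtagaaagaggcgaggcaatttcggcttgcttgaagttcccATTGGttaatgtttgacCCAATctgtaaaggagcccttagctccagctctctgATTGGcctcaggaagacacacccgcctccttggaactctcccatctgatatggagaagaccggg
Mvd: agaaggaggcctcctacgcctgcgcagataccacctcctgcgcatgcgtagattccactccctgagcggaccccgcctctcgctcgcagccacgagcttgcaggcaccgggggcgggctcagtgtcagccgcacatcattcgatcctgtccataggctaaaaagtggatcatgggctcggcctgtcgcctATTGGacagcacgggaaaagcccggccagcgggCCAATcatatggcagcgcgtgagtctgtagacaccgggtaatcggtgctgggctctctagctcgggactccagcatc
Ggps1: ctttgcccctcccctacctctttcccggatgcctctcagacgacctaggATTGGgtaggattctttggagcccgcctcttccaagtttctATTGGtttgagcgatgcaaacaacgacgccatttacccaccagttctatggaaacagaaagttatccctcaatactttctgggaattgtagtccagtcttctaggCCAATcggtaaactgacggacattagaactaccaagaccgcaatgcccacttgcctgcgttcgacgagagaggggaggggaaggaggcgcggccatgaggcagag
The Hmgcs1 window held 1 TCACNCCAC match, at position -137 from the start, and no window of the other 6 genes held one. On both strands counted together, 1.24% of 32851 promoter windows of the same length held this motif. CCAAT occurred 4 times in the Hmgcs1 window, 5 times in that of Mvk, 2 times in that of Mvd, 2 times in that of Idi1 and 3 times in that of Ggps1. It occurred 0 times in the window of Acat2, and 1 and 0 times in the 2 windows of Pmvk, which was lower in the same comparisons as Hmgcs1, Mvk and Mvd. Of all windows, 1.06% held 4 or more CCAAT boxes, 3.37% held 3 or more and 11.7% held 2 or more. Ggps1, which was called in no comparison of diets, held more of these boxes in its window than Mvd or Idi1. The Mvk window shares 259 bases with that of the neighbouring gene Mmab, which runs the other way. A match of letters is a description and not a binding site.

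**Figure D1:**
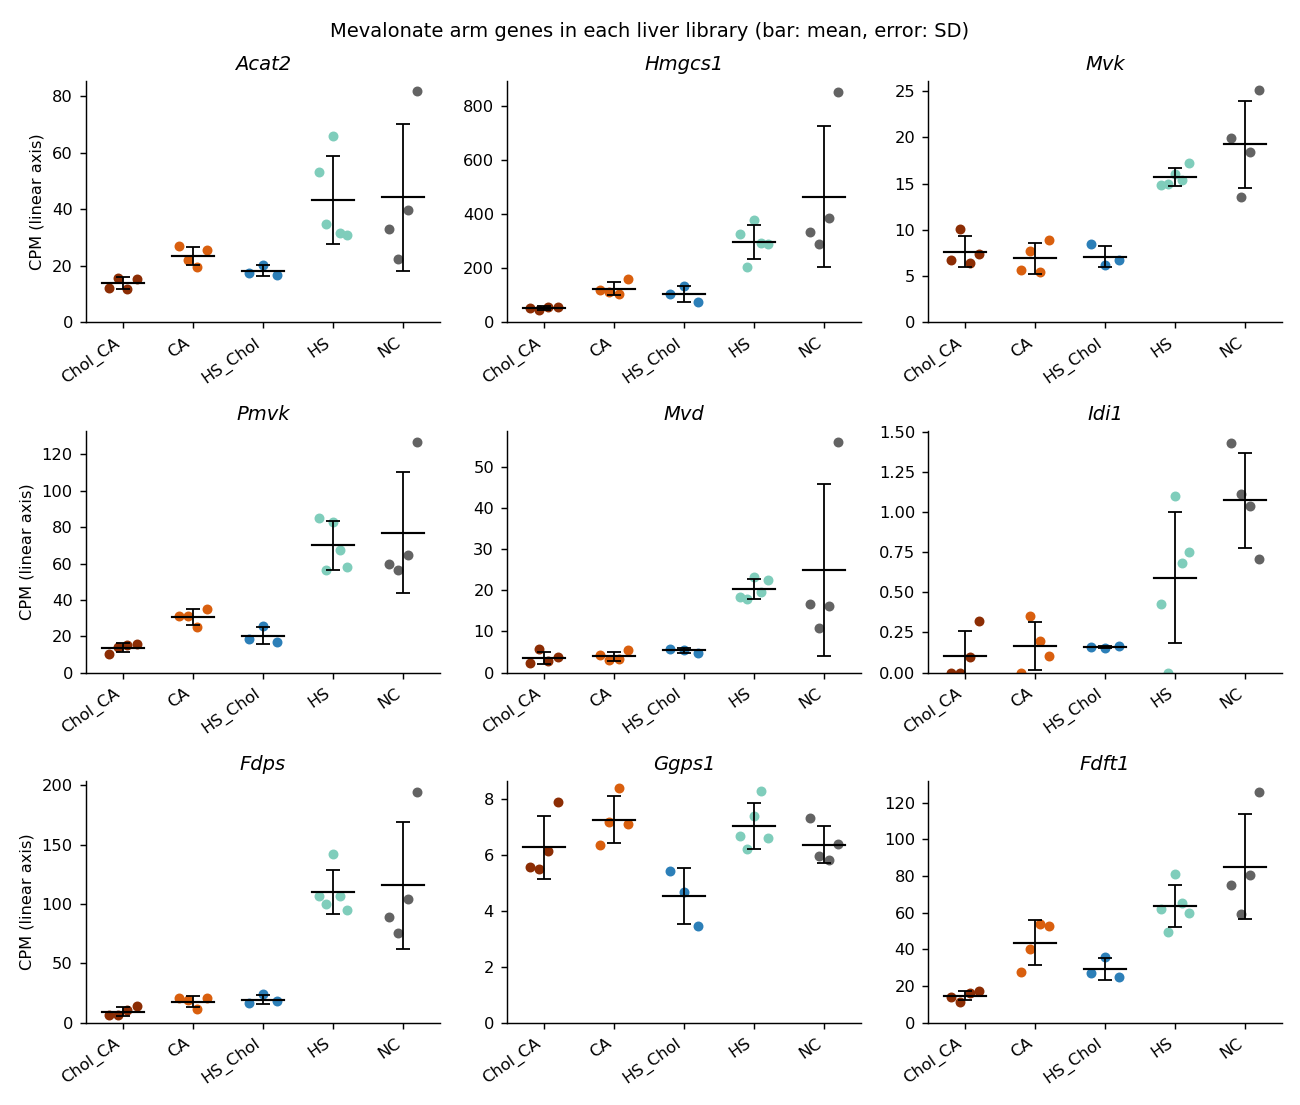
Level of each of the 9 mevalonate genes in reads per 1000000 assigned reads (CPM, linear axis) in every library. Each library total was first multiplied by its TMM scaling factor. There is 1 panel per gene, with the diets from Chol_CA at the left to NC at the right. Points are libraries, bars are diet means and error bars are SD. Fdps lay between 6.29 and 13.7 CPM in Chol_CA livers, against 75.8 to 194 CPM in NC livers, and Ggps1 overlapped between those diets.

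The libraries held between 6110484 and 10244277 reads assigned to genes. Chow library 3, numbered as in the table, which counts from 0, stood apart for these genes. It was higher than each of the other 3 NC libraries for 7 of the 9 members, at 1.45 times their mean for Mvk and 3.83 times for Mvd, while Ggps1 was at 1 times that mean. In 8 of the 20 libraries, chow library 3 among them, longer genes had relatively fewer reads than in the mean of all libraries, and in the other 12 they had more. Per 1000000 reads of heavy-strand mitochondrial messenger RNA, light-strand tRNA genes had between 673 and 900 reads in HS_Chol livers and between 8.95 and 83.4 in the other 17 libraries. The summed level of 8 Kupffer cell and macrophage markers ran between 730 and 2010 CPM in Chol_CA, 194 and 605 CPM in CA, 180 and 462 CPM in HS_Chol, 95.1 and 253 CPM in HS, and 76 and 118 CPM in NC. All 8 of those markers rose in Chol_CA and in CA livers against NC, and 3 rose in HS_Chol livers, while 15.0%, 5.22% and 1.71% of all genes were called higher in those comparisons. The summed level of the 7 hepatocyte markers found in the table, which include Alb and Ttr, lay between 65732 and 78833 CPM in Chol_CA, 89795 and 119673 CPM in CA, 85308 and 96729 CPM in HS_Chol, 99943 and 116793 CPM in HS, and 125148 and 131756 CPM in NC, with 2 of the 7 lower in Chol_CA and 1 in CA against NC, beside 9.35% and 4.61% of all genes. Against NC, 5 of 5 lymphocyte, 3 of 3 neutrophil and 3 of 7 stellate cell markers tested were higher in Chol_CA, and 1, 0 and 0 of these in CA. Of bile duct and endothelial markers 2 of 5 and 1 of 6 were higher in Chol_CA and 0 in CA. In CA 1 stellate cell marker was lower. The median log2 fold change of the 7 hepatocyte markers against NC was -0.21 in Chol_CA, -0.42 in CA and -0.14 in HS_Chol. In HS_Chol 0 of the 7 were called. In whole liver, fewer hepatocytes, less RNA per hepatocyte and a change of single marker genes cannot be told apart. The part of these cell markers in the results below was not tested.

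Most of the arm was lower with cholesterol and cholic acid in the diet than with chow. Of the 8 members with enough reads to be tested, 7 were lower in Chol_CA than in NC livers by edgeR's quasi-likelihood test at a Benjamini-Hochberg adjusted p under 0.05, against 9.35% of the 12595 genes tested. For the same 7 genes every Chol_CA library lay below every NC library, which held for 9.59% of all genes. Their log2 fold changes lay between -3.61 and -1.33. The median over the 8 tested members was -2.50 on the log2 scale, and that over all genes was 0.00 after rounding. The member not called was Ggps1, the enzyme of the non-sterol branch. Without chow library 3 the count of 7 was the same, with Fdps at -3.23, Hmgcs1 at -2.65 and Mvd at -2.01.

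Cholic acid alone was also accompanied by lower levels. In CA against NC livers 6 of 8 members were lower, while 4.61% of all genes were, and the median was -1.40 against 0.01 for all genes. The 6 were Hmgcs1, Mvk, Pmvk, Mvd, Fdps and Fdft1, and for each of them the diets did not overlap, which held for 6.39% of all genes. Acat2 had a log2 fold change of -0.91 ± 0.30 (SE) that missed the threshold at an adjusted p of 0.0644, and its libraries overlapped; DESeq2 gave it an adjusted p of 0.0343. Without chow library 3 the 6 genes passed, and the value of Acat2 was -0.44 with an adjusted p of 0.273.

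High sucrose with cholesterol gave 6 of 8 members lower than in NC, a call made for 0.564% of all genes, with a median of -1.73 against 0.00. The 6 were again Hmgcs1, Mvk, Pmvk, Mvd, Fdps and Fdft1. All 8 tested members, Acat2 and Ggps1 included, lay in every HS_Chol library below every NC library, which held for 5.58% of all genes. Acat2 had a log2 fold change of -1.27 ± 0.34 at an adjusted p of 0.0544, or 0.00945 by DESeq2, and with 1 library left out the value lay between -1.49 and -0.80 and the adjusted p between 0.0135 and 0.263. The count without chow library 3 was 6.

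With high sucrose alone few genes of any kind were called, and no member was. In HS against NC livers 0 of 8 members were called in either direction, against 0.437% of all genes lower and 0.214% higher, so 0 of 8 is near the background. At an unadjusted p under 0.05 only Hmgcs1 stood out, with a log2 fold change of -0.64 ± 0.26 and an adjusted p of 0.349, and DESeq2 also called 0 members. The 95% interval of the difference was -1.18 to -0.10 for Hmgcs1 and -1.01 to 0.42 for Mvd. The median was -0.22 against 0.02 for all genes, and all 8 genes overlapped between HS and NC, while 2.66% of all genes were lower and 2.17% higher without overlap. Without chow library 3 the value of Mvd was 0.47, of Acat2 0.44, of Fdps 0.29 and of Pmvk 0.20, each positive and none called. The 4 comparisons with chow share the same NC libraries. In the 12 libraries of positive length trend alone (2 Chol_CA, 3 CA, 2 HS_Chol, 2 HS and 3 NC), 7 members were lower in Chol_CA, 6 in CA, 6 in HS_Chol and 0 in HS, each against NC.

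**Figure D2:**
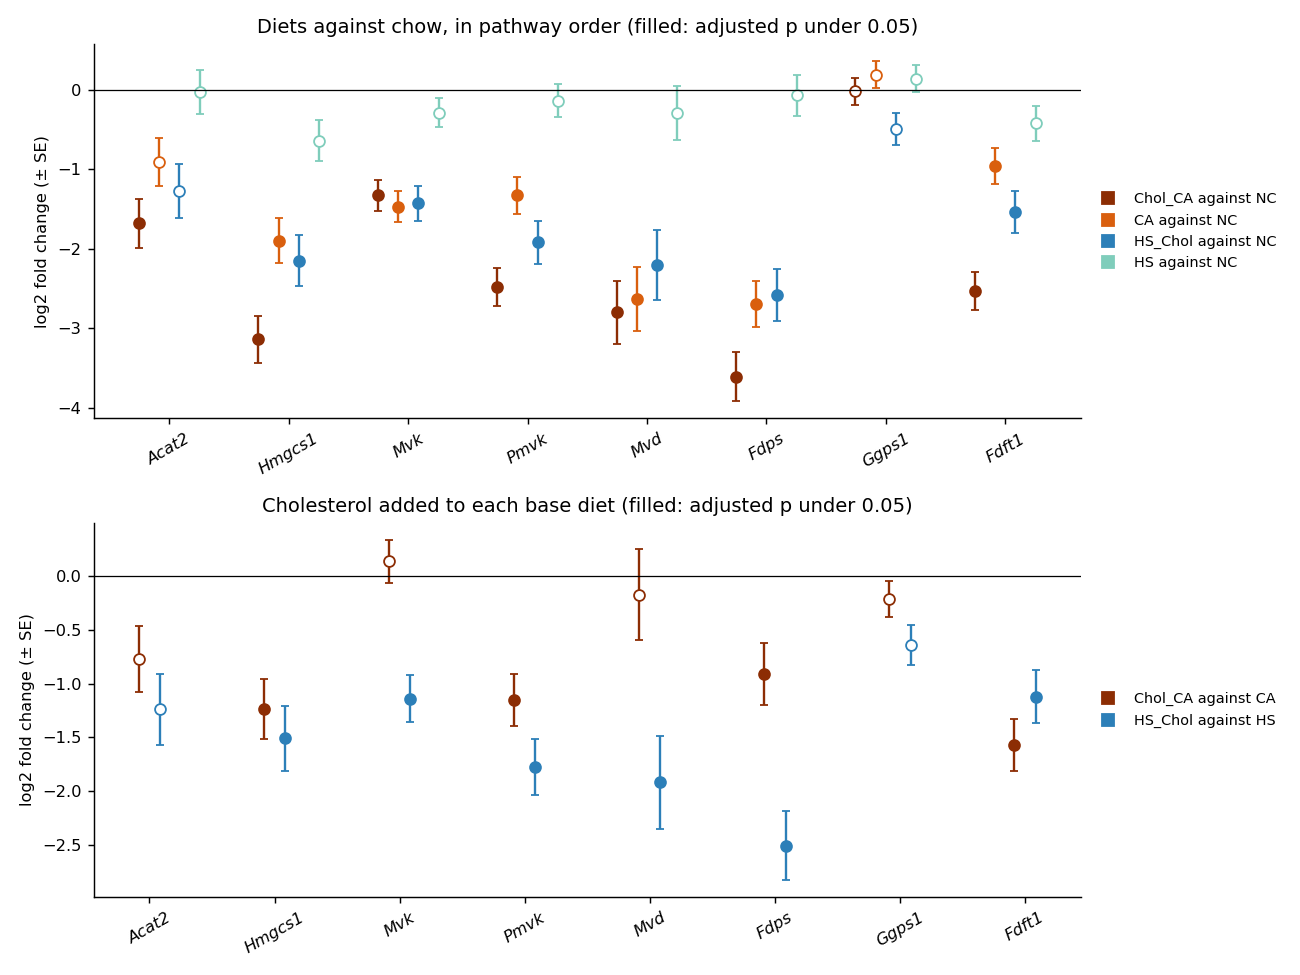
Log2 fold change of the 8 tested members in each comparison of 2 diets, with error bars of 1 standard error from the edgeR fit and filled points for adjusted p under 0.05. The Chol_CA against NC points lie furthest below 0 for Fdps at -3.61 and Hmgcs1 at -3.14, and those of HS against NC lie between -0.64 and 0.14.

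The entry of the pathway is catalysed by Acat2, the cytosolic acetoacetyl-CoA thiolase, and Hmgcs1, the cytosolic HMG-CoA synthase. Hmgcs1 (GRCm38 chromosome 13, 119690379 to 119708260, plus strand) had 52, 44.4, 58.7 and 55.9 CPM in the Chol_CA livers and 121, 113, 106 and 160 CPM in the CA livers. It had 105, 134 and 75.6 CPM in HS_Chol, 326, 204, 377, 295 and 290 CPM in HS, and 334, 289, 386 and 852 CPM in NC livers. The Chol_CA libraries were below all others, the CA and HS_Chol libraries overlapped each other and lay below HS, and HS overlapped NC. Hmgcs1 fell 8.81-fold in Chol_CA against NC (log2 fold change -3.14 ± 0.30, adjusted p 5.68e-07). Its log2 fold change against NC was -1.90 ± 0.28 in CA (adjusted p 0.000186) and -2.15 ± 0.32 in HS_Chol (adjusted p 0.000267). Per kilobase of exon, Hmgcs1 was the most abundant of the 9 members in each diet, at 11.5 CPM per kb in Chol_CA and 101 CPM per kb in NC.

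Acat2 (chromosome 17, 12942890 to 12960747, minus strand) had 12, 15.8, 11.9 and 15.5 CPM in Chol_CA livers, 26.9, 22.1, 19.7 and 25.5 CPM in CA livers and 17.5, 20.4 and 16.9 CPM in HS_Chol livers. It had 53.3, 34.7, 65.8, 31.7 and 31 CPM in HS livers and 33.1, 22.3, 39.8 and 81.9 CPM in NC livers. The NC libraries spread over a wide range and their lowest was inside the range of CA. Acat2 fell by 1.68 ± 0.31 on the log2 scale in Chol_CA against NC (adjusted p 0.000401), its only call among the 6 comparisons of diets with edgeR. Acat3, a near copy beside it whose reads may not be fully told apart from those of Acat2, had means between 89.3 and 123 CPM over the diets and was called in no comparison.

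Mevalonate is carried on by Mvk, mevalonate kinase, Pmvk, phosphomevalonate kinase, and Mvd, which removes a carboxyl group to give isopentenyl diphosphate. Pmvk (chromosome 3, 89454541 to 89469013, plus strand) had 10.3, 14.2, 15 and 15.5 CPM in Chol_CA, 31.2, 31.3, 24.9 and 35.1 CPM in CA, and 18.7, 25.5 and 16.9 CPM in HS_Chol livers. It had 85.2, 56.2, 82.8, 67.2 and 58.3 CPM in HS and 59.7, 56.7, 64.8 and 127 CPM in NC livers. Its order of diets was that of Hmgcs1, with Chol_CA lowest and HS overlapping NC. The log2 fold change against NC was -2.48 ± 0.24 in Chol_CA (adjusted p 7.36e-07), -1.33 ± 0.23 in CA (adjusted p 0.000823) and -1.92 ± 0.27 in HS_Chol (adjusted p 0.000123).

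Mvk (chromosome 5, 114444269 to 114460591, plus strand) had 6.74, 10.1, 6.44 and 7.35 CPM in Chol_CA, 5.63, 7.76, 5.42 and 8.91 CPM in CA, and 8.45, 6.19 and 6.72 CPM in HS_Chol livers. It had 14.9, 15, 16, 15.4 and 17.2 CPM in HS and 19.9, 13.6, 18.4 and 25.1 CPM in NC livers. The levels formed 2 blocks, with the 3 diets that hold cholesterol or cholic acid overlapping one another and all below HS and NC. Its log2 fold changes against NC were close to each other, at -1.33 ± 0.20 in Chol_CA (adjusted p 4.42e-05), -1.47 ± 0.20 in CA (adjusted p 7.36e-05) and -1.43 ± 0.22 in HS_Chol (adjusted p 0.000473).

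Mvd (chromosome 8, 122433601 to 122443422, minus strand) showed the same 2 blocks. It had 2.25, 5.6, 2.73 and 3.68 CPM in Chol_CA, 4.34, 2.94, 3.35 and 5.41 CPM in CA, and 5.74, 5.58 and 4.75 CPM in HS_Chol livers. It had 18.3, 17.9, 23.2, 19.7 and 22.6 CPM in HS livers and 16.7, 10.9, 16.2 and 56 CPM in NC livers. The NC mean of 25 ± 20.9 CPM (SD, n = 4) rests on chow library 3, and without it the mean of the other 3 was 14.6 ± 3.21 CPM. The log2 fold change against NC was -2.80 ± 0.40 in Chol_CA (adjusted p 3.27e-05), -2.63 ± 0.40 in CA (adjusted p 0.000222) and -2.21 ± 0.44 in HS_Chol (adjusted p 0.00595). Without chow library 3 these were -2.01, -1.87 and -1.45, and all 3 passed the threshold.

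Idi1, the isopentenyl diphosphate isomerase (chromosome 13, 8885501 to 8892451, plus strand), had only 64 reads over the 20 libraries and was too low to be tested with the others. It had 4 reads in all Chol_CA libraries together, 6 in CA, 3 in HS_Chol, 20 in HS and 31 in NC. Per library it lay between 0 and 0.324 CPM in Chol_CA, 0 and 0.353 CPM in CA, 0.151 and 0.164 CPM in HS_Chol, 0 and 1.1 CPM in HS, and 0.709 and 1.43 CPM in NC. Every Chol_CA, CA and HS_Chol library was below every NC library, while HS overlapped NC. With no filter on low counts, the log2 fold change against NC was -3.15 ± 0.75 in Chol_CA (adjusted p 0.004) and -2.60 ± 0.71 in CA (adjusted p 0.0296), and that of HS_Chol missed the threshold at an adjusted p of 0.132. Its paralog Idi2 had 0 reads.

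Fdps, the farnesyl diphosphate synthase (chromosome 3, 89093588 to 89101959, minus strand), had the largest log2 fold change of the 8 tested members in each of the 3 comparisons of a cholesterol or cholic acid diet with chow. It had 6.74, 6.29, 10.8 and 13.7 CPM in Chol_CA, 20.4, 18.8, 11.3 and 20.7 CPM in CA, and 16.3, 23.8 and 18 CPM in HS_Chol livers. It had 107, 100, 142, 107 and 95 CPM in HS livers and 89.1, 75.8, 104 and 194 CPM in NC livers. The highest of the 11 libraries with cholesterol or cholic acid, at 23.8 CPM, was well below the lowest of the 9 HS and NC libraries, at 75.8 CPM. Fdps fell 12.2-fold in Chol_CA (log2 fold change -3.61 ± 0.31, adjusted p 2.01e-07), 6.5-fold in CA (-2.70 ± 0.29, adjusted p 6.33e-06) and by 2.58 ± 0.33 on the log2 scale in HS_Chol (adjusted p 5.04e-05), each against NC.

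At the branch point, Fdft1, the squalene synthase that commits farnesyl diphosphate to sterols, and Ggps1, the geranylgeranyl diphosphate synthase, followed different courses. Fdft1 (chromosome 14, 63145150 to 63179578, minus strand) had 14.1, 11.4, 16.3 and 17.1 CPM in Chol_CA, 27.9, 40.1, 54 and 52.9 CPM in CA, and 27.3, 35.9 and 24.8 CPM in HS_Chol livers. It had 62.3, 49.5, 81.2, 65.3 and 59.8 CPM in HS livers and 75, 59.1, 80.6 and 126 CPM in NC livers. Chol_CA lay below every other diet, and CA overlapped both HS_Chol and HS. Fdft1 fell by 2.53 ± 0.24 on the log2 scale in Chol_CA (adjusted p 6.59e-07), by 0.96 ± 0.23 in CA (adjusted p 0.00995) and by 1.54 ± 0.26 in HS_Chol (adjusted p 0.00117), each against NC. One end of Fdft1 overlaps Ctsb on the other strand, which averaged 1418 CPM in Chol_CA and 708 CPM in NC, and the strand counted is not given in the sources used here.

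Ggps1 (chromosome 13, 14050659 to 14063488, minus strand) had 5.55, 5.49, 6.15 and 7.89 CPM in Chol_CA, 6.34, 7.18, 8.38 and 7.11 CPM in CA, and 5.42, 4.68 and 3.44 CPM in HS_Chol livers. It had 6.68, 6.19, 7.37, 8.29 and 6.59 CPM in HS livers and 7.3, 5.95, 5.83 and 6.38 CPM in NC livers. The Chol_CA, CA, HS and NC libraries overlapped, and the HS_Chol libraries were all lower than those of NC and of HS. No comparison of diets passed the test for Ggps1. The 95% interval of its log2 fold change against NC was -0.38 to 0.34 in Chol_CA, -0.17 to 0.55 in CA and -0.90 to -0.08 in HS_Chol, the last with an adjusted p of 0.281. Arid4b, which overlaps it on the other strand, averaged 21.6 CPM in Chol_CA, 23.7 CPM in HS_Chol and 24.4 CPM in NC. Per kilobase of exon, Fdft1 stood at 3.49 CPM per kb and Ggps1 at 1.33 CPM per kb in Chol_CA livers, against 20.2 and 1.35 CPM per kb in NC livers.

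The ratio of Fdft1 to Ggps1 reads, which does not depend on how libraries are scaled, had a geometric mean of 2.34 in Chol_CA (range 2.07 to 2.64), 5.82 in CA (4.38 to 7.39), 6.42 in HS_Chol (4.97 to 7.57), 8.9 in HS (7.81 to 10.9) and 12.8 in NC livers (9.83 to 19.6). Every library of Chol_CA, CA and HS_Chol was below every NC library, and HS overlapped NC. The log2 difference of the ratio was -2.45 in Chol_CA against NC and -1.14 in CA against NC, each with an exact two-sided permutation p of 0.0286. For HS_Chol against NC it was -0.99, with an exact p of 0.0571. These are the smallest p-values that 4 against 4 and 3 against 4 libraries allow. Over the 6 comparisons of diets the Benjamini-Hochberg adjusted exact p lay between 0.0536 and 0.0635, so none passed after adjustment.

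**Figure D3:**
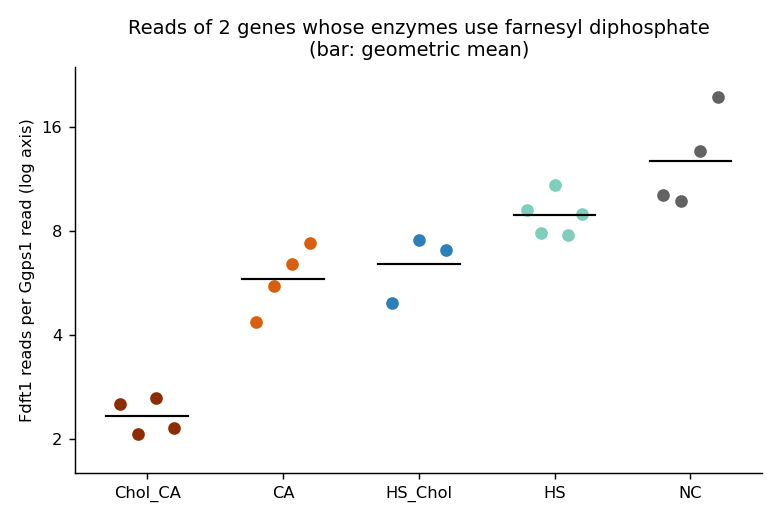
Ratio of Fdft1 to Ggps1 reads (log axis) in every library by diet, Chol_CA at the left and NC at the right, with bars at the geometric means. The 4 Chol_CA libraries lie between 2.07 and 2.64, below every library of the other diets.

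With cholesterol added to high sucrose, every HS_Chol library lay below every HS library for all 8 tested members, which held for 5.45% of all genes. The test called 6 of the 8 lower, a call made for 0.651% of all genes. The median log2 fold change was -1.38 against 0.01 for all genes. Fdps fell by 2.51 ± 0.32 on the log2 scale (adjusted p 4.01e-05), Mvd by 1.92 ± 0.43 (adjusted p 0.0159), Pmvk by 1.78 ± 0.26 (adjusted p 0.000171), Hmgcs1 by 1.51 ± 0.30 (adjusted p 0.00579), Mvk by 1.14 ± 0.22 (adjusted p 0.00341) and Fdft1 by 1.12 ± 0.25 (adjusted p 0.0159). Acat2 at -1.24 ± 0.33 (adjusted p 0.0537, or 0.00809 by DESeq2) and Ggps1 at -0.64 ± 0.19 (adjusted p 0.0997) missed the threshold. The count rested on all 3 HS_Chol libraries: it was 4 without library 0, 5 without library 1 and 3 without library 2 of that diet. Over all genes, 33, 38 and 49 were called lower without those libraries, against 82 with them. Mvd lost its call in each case (adjusted p 0.0763 to 0.0861), Fdft1 without library 0 or 2 and Hmgcs1 without library 2 (-1.34, adjusted p 0.0539). These 3 libraries are also those with the most light-strand mitochondrial reads, and the part of that in the result was not tested.

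With cholesterol added to cholic acid, part of the arm was lower. In Chol_CA against CA livers 4 of 8 members were lower, against 7.80% of all genes, and 4 were without overlap, against 7.25%. The median was -0.84 against 0.02 for all genes. Fdft1 fell 2.96-fold (log2 fold change -1.57 ± 0.24, adjusted p 0.000176), Hmgcs1 by 1.24 ± 0.28 on the log2 scale (adjusted p 0.0035) and Pmvk by 1.15 ± 0.24 (adjusted p 0.00187). Fdps fell by 0.91 ± 0.29 (adjusted p 0.0314), but its libraries overlapped. Its call was lost without CA library 0, 1 or 3 and without Chol_CA library 0 or 1, with adjusted p between 0.0595 and 0.106, and among the libraries of positive length trend alone its value was -0.48 (adjusted p 0.198). The call of Fdps was also lost when edgeR was fitted on only the diets compared (adjusted p 0.0721). Mvk had a log2 fold change of 0.14 ± 0.20 with a 95% interval of -0.28 to 0.56, and that of Mvd was -0.17 ± 0.42 with an interval of -1.05 to 0.72. Acat2, at -0.77 ± 0.31 and an adjusted p of 0.0856, did not overlap between the diets, and it was called without chow library 3 (adjusted p 0.0264).

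The effect of cholesterol differed between the cholic acid and the sucrose diets for 2 members by the test of the difference itself, that is Chol_CA minus CA less HS_Chol minus HS on the log2 scale. The difference was 1.28 ± 0.29 for Mvk (adjusted p 0.0123) and 1.59 ± 0.42 for Fdps (adjusted p 0.0281), so the log2 fold change was less negative or above 0 beside cholic acid, and 2.47% of all genes were called in that direction, while 3.53% were called in the other, which held 0 members. For Mvd it was 1.75 ± 0.60 with an adjusted p of 0.0906. For Hmgcs1 it was 0.27 ± 0.40 (adjusted p 0.73), and for Fdft1 it was -0.45 ± 0.34 (adjusted p 0.463). Before cholesterol was added, the base diets differed in level. The means in CA and HS were 6.93 and 15.7 CPM for Mvk, 17.8 and 110 CPM for Fdps, and 4.01 and 20.4 CPM for Mvd. With cholesterol, in Chol_CA and HS_Chol, they were 7.65 and 7.12 CPM for Mvk, 9.4 and 19.4 CPM for Fdps, and 3.56 and 5.36 CPM for Mvd. The call of Mvk was lost without HS_Chol library 1 (1.15, adjusted p 0.0599). That of Fdps was lost without CA library 2, Chol_CA library 3 or HS_Chol library 0 or 2, with adjusted p between 0.057 and 0.085, while Mvd was called without chow library 3 (adjusted p 0.00486), which enters this contrast only through the shared spread, with DESeq2 (0.0385), with only the 4 diets concerned (0.00831) and with positive length trend only (0.017). In Chol_CA against CA, 5 of 8 macrophage, 6 of 7 stellate cell and 3 of 3 neutrophil markers tested were higher, against 13.4% of all genes. Of bile duct, lymphocyte and endothelial markers 2 of 5, 1 of 5 and 0 of 6 were higher. Of hepatocyte markers 1 of 7 was lower, against 7.80% of all genes. The test of the difference called 2 of 7 stellate cell, 1 of 5 bile duct and 1 of 5 lymphocyte markers, all higher. It called 0 macrophage, neutrophil, endothelial or hepatocyte markers. The part of these markers in the difference was not tested.

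Most genes of the later steps to cholesterol were lower in the same 3 diets. Of 13 genes of the steps between squalene and cholesterol, 12 were lower in Chol_CA, 11 in CA, 11 in HS_Chol and 0 in HS livers against NC, with medians of -2.30, -1.50, -1.57 and -0.29. The shares of all genes called lower were 9.35%, 4.61%, 0.564% and 0.437%. Sqle, the squalene epoxidase, averaged 1.36 ± 0.485 CPM in Chol_CA, 4.07 ± 2.52 CPM in CA, 2.69 ± 0.392 CPM in HS_Chol, 47.2 ± 16.9 CPM in HS and 67.6 ± 5.96 CPM in NC (SD). Its log2 fold change against NC was -5.59 ± 0.40 in Chol_CA (adjusted p 2.19e-08) and -4.64 ± 0.43 in HS_Chol (adjusted p 1.41e-06), beyond that of any mevalonate gene. Of 11 genes of SREBP control, 6 were lower and 1 higher in Chol_CA and likewise in CA against NC, and 0 were called in HS_Chol, where the median was -0.24. Of all genes, 9.35% were lower and 15.0% higher in Chol_CA, 4.61% and 5.22% in CA, and 0.564% and 1.71% in HS_Chol, so that 0 of 11 there is near the background. The higher gene was Mylip, which targets the LDL receptor for degradation, in Chol_CA (0.96, adjusted p 0.00507) and Insig2, a retention protein like Insig1, in CA (0.87, adjusted p 0.00411). The value of Insig2 in Chol_CA was 0.00. Both were named after their values were seen. Among the lower genes Insig1, which retains the SREBP complex, fell by 2.38 in Chol_CA and by 1.67 in CA, and had a value of -1.09 in HS_Chol with an adjusted p of 0.164.

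Against chow, genes of the non-sterol branch were called about as often as all genes. Of 16 genes that use isoprenoids for prenylation, dolichol or ubiquinone, 1 was lower and 1 higher in Chol_CA against NC and 0 were called in CA, HS_Chol or HS against NC, with medians of -0.13, -0.05, -0.07 and 0.05. Of all genes 9.35% were lower and 15.0% higher in Chol_CA, 4.61% and 5.22% in CA, 0.564% and 1.71% in HS_Chol, and 0.437% and 0.214% in HS, each against NC, so these counts lie near the background. The lower one was Rabggtb, a subunit of the enzyme that prenylates Rab proteins, at -0.45 ± 0.11 (adjusted p 0.00467). The higher one was Srd5a3, of dolichol synthesis, at 0.68 ± 0.21 (adjusted p 0.0233). In HS_Chol against HS livers, Rabggtb again was lower, at -0.56 ± 0.12 (adjusted p 0.00859), and was the only one of the 16 called.

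Upstream, the 3 genes that supply cytosolic acetyl-CoA were all lower in Chol_CA against NC, and Acss2, the acetyl-CoA synthetase, fell by 2.67 on the log2 scale (adjusted p 2.77e-07). In CA 2 of the 3 were lower and in HS_Chol 1, Acss2 with -1.53 (adjusted p 0.000898). The shares of all genes called lower were 9.35% in Chol_CA, 4.61% in CA and 0.564% in HS_Chol.

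**Figure D4:**
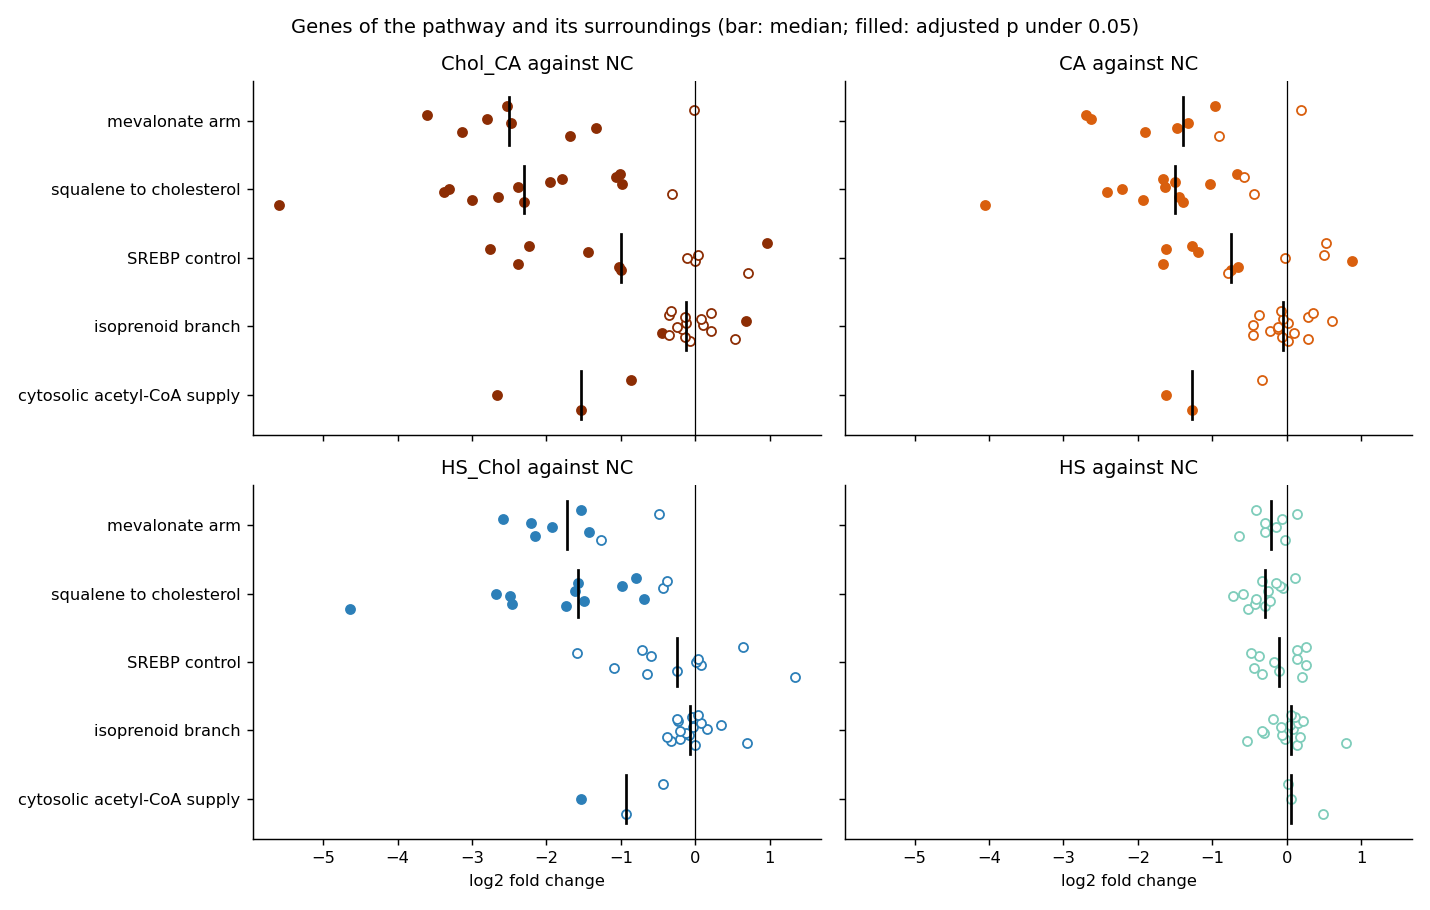
Log2 fold change of each gene of the mevalonate arm and of 4 related lists in the 4 comparisons with chow, with bars at the medians and filled points for adjusted p under 0.05. The medians of the mevalonate and squalene-to-cholesterol lists lie between -2.50 and -1.40 in the 3 comparisons of cholesterol or cholic acid diets with chow, and those of the isoprenoid branch between -0.13 and 0.05 in all 4.

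Within the arm, the profile of a member over the 20 libraries could be set against the mean standardised profile of the other tested members. Pearson's r was 0.979 for Pmvk, 0.962 for Hmgcs1, 0.946 for Fdps, 0.914 for Acat2, 0.913 for Mvd, 0.905 for Fdft1, 0.857 for Mvk and 0.296 for Ggps1. These values are descriptions, since the libraries share diets and depth. Of 8984 genes ranked by r with the mean profile of the 8 members, the 6 highest outside the arm were Rdh11 at 0.975, Nsdhl at 0.969, Sc4mol at 0.963, Lss at 0.959, Mmab at 0.957 and Acss2 at 0.95. Nsdhl, Sc4mol and Lss encode enzymes of the steps between squalene and cholesterol, Rdh11 is a retinol dehydrogenase and Mmab an enzyme of cobalamin metabolism. Rdh11 averaged 18.4 ± 2.45 CPM in Chol_CA, 39.7 ± 6.79 CPM in CA, 24.8 ± 2.57 CPM in HS_Chol, 98.7 ± 20.2 CPM in HS and 90 ± 37.3 CPM in NC (SD). Mmab, which shares its promoter window with Mvk, fell by 1.43 ± 0.15 on the log2 scale in Chol_CA (adjusted p 1.52e-06), by 0.89 ± 0.15 in CA (adjusted p 0.000488) and by 0.95 ± 0.16 in HS_Chol (adjusted p 0.00139), each against NC.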

How the data were processed

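Total RNA libraries, made with a strand-specific kit and read from 1 end for 50 bases per the labels' protocols, were counted per gene. The authors deposited raw read counts, made with STAR 2.6.1c on mm10 per the submitters' processing notes; the strand counted is not given in the sources used here. Of 23 value columns, 20 were matched to 5 diets by name and 3 were not used. HS_Chol had 3 columns for its 4 labelled samples, and the HS sample with a chow diet label could not be traced. Totals are given in the report. Counts were analysed with edgeR 4.0.16 in R 4.3.3 (TMM scaling, filterByExpr, robust quasi-likelihood test, 1 mean per diet, all 20 libraries, Benjamini-Hochberg over 12595 genes); this pipeline was tested on simulated data. CPM is reads per 1000000 assigned reads, with each library total first multiplied by its TMM factor. DESeq2 1.42.0, other scalings and filters, a replicate block and each library left out were alternatives. The Fdft1 to Ggps1 ratio used counts plus 0.5 and exact permutation (scipy 1.17.1). The members, the gene lists and the named genes (all 9 members, in the related lists those with the smallest edgeR p in Chol_CA against NC or all of a short list, and the 6 most alike in profile) were chosen with earlier results of these data known. Positions are from GENCODE on GRCm38. Some related genes and lists are not reported here.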

Additional observations from a re-analysis of the deposited data

Results flagged for a closer look

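Of the 36 sets of a gene and a diet with 4 or 5 libraries, 3 had 1 library far from the rest, and chance alone flags about 1 set in 20. Pmvk was at 127 CPM and Mvd at 56 CPM in chow library 3, the library that was also high for 5 other members. Fdps was at 142 CPM in HS library 2. The added effect of cholesterol differed between the cholic acid and sucrose diets for Mvk, by 1.28 on the log2 scale (edgeR, adjusted p 0.0123), and for Fdps, by 1.59 (adjusted p 0.0281). The part of library composition in these differences was not tested.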

How the results depend on the processing

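Leaving out each library in turn gave 7 to 7 members called for Chol_CA against NC, 6 to 7 for CA against NC, 6 to 7 for HS_Chol against NC, 0 to 0 for HS against NC, 3 to 7 for HS_Chol against HS, 3 to 5 for Chol_CA against CA and 1 to 3 for the difference in the cholesterol effect. The log2 ratio of Fdft1 to Ggps1 ranged from -2.58 to -2.25, -1.26 to -0.93, -1.12 to -0.79 and -0.65 to -0.32 for Chol_CA, CA, HS_Chol and HS against NC, from -0.59 to -0.29 for HS_Chol against HS and from -1.46 to -1.20 for Chol_CA against CA. For HS against NC it was -0.60 without HS library 2, with an adjusted exact p of 0.0429. Single-gene results kept their direction wherever called, over all settings (DESeq2, other scaling, filters, only the diets compared, length trend, the block and each library left out): 1525 values left the call as it was, 23 added a call, 20 lost one and 0 reversed one. Many of these settings left out a library of a diet outside the comparison, which can move a value only a little, so the count of 1525 overstates the steadiness. With only the diets compared, Mvd lost its call in HS_Chol against NC (adjusted p 0.101) and Fdft1 in CA against NC (adjusted p 0.054). Fdps lost its call in Chol_CA against CA in the same setting (adjusted p 0.0721). The replicate block gave 6, 4, 7, 6 and 6 members called for CA against NC, Chol_CA against CA, Chol_CA against NC, HS_Chol against HS and HS_Chol against NC; it gave 0 for HS against NC. The numbers gave no clear sign of pairing: 17 of 36 same-numbered pairs had a correlation over 0.1 and 2 of 20 libraries correlated best with their own number. The count of 17 was not set beside that of differently numbered pairs, so it cannot decide whether the samples are paired. Counts over all genes moved by more than 1.5 times: for HS against NC 55 lower became 144 with DESeq2, 26 with the block and 193 in the 12 libraries of positive length trend, and 27 higher became 60, 9 and 186. For HS_Chol against NC 71 lower became 163 and 216 higher 355 with DESeq2, 241 and 376 with positive length trend only and 159 and 344 with a term for that trend, and 216 higher became 358 with no filter and 115 with a mean of at least 1 CPM. For HS_Chol against HS 82 lower became 164 with DESeq2, 46 with the block and 133 with the term, and 201 higher became 346 with no filter, 120 with the 1 CPM filter and 305 with the term. For CA against NC 581 lower became 1445 and 657 higher 1521 with positive length trend only, and 930 and 1069 with the term. For HS against NC the term gave 94 lower and 49 higher. With only the diets compared, 1178 lower became 701 for Chol_CA against NC, and 983 lower became 521 and 1693 higher 1061 for Chol_CA against CA, where positive length trend only gave 1716 lower. For the difference in the cholesterol effect 445 lower became 839 with positive length trend only, and 311 higher became 577 there and 476 with DESeq2. Leaving out 1 library gave 29 to 100 lower and 6 to 58 higher for HS against NC, 36 to 97 lower for HS_Chol against NC, 376 to 764 higher for CA against NC, 33 to 106 lower for HS_Chol against HS, 960 to 1939 higher for Chol_CA against CA, and 318 to 707 lower and 130 to 608 higher for the difference in the cholesterol effect. The cause was not tested. Genes at a few CPM, Idi1 above all, are limited by depth.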
